A study of Mus musculus with 34 samples.

Results

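Jun binding was mapped by ChIP-seq in thioglycollate-elicited macrophages (TGEMs) of male C57BL/6 mice, either resting (Veh, PBS) or treated for 1 h with Kdo2 lipid A (KLA, 100 ng/mL), the active lipid of endotoxin. The members described here are the loci of the 2 Jun peak lists of this strain, 15548 peaks in Veh and 17480 peaks after KLA, and peaks that overlapped by 1 bp or more were counted as one locus. This gave 24037 Jun loci. A separate merge of the 12 lists of the 6 mapped AP-1 monomers in C57BL/6 gave 49612 loci, of which 25744 held no Jun peak. Of the Jun loci, 8496 held a peak only after KLA (KLA-only), 8970 held a peak in both lists (shared) and 6571 held a peak only in Veh (Veh-only).

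The macrophages came from 8-week-old animals and were collected 3 days after injection, and neither group carried an engineered allele. The labels give the strain as C57Bl/6EiJ, whereas the study's methods name C57BL/6J. For comparison, Jun lists of BALB/cJ TGEMs (Veh and KLA) and of PPARg knockout TGEMs (Veh), and lists of ATF3, JunD, Fos, FosL2 (the protein of Fosl2, also called Fra2), JunB, PU.1, CEBPa and PPARg in C57BL/6, were used. Which promoter or Cre line drove the PPARg deletion is not given in the sources used here. The authors combined replicates into one list for each factor and treatment, so no value below has a spread between replicates and no test of a treatment effect was possible. All intervals are 95% intervals over loci, which cover counting error only (Wilson for a share, Newcombe for a difference of shares).

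Jun is a basic leucine zipper protein that binds DNA as a dimer with another member of the AP-1 family, among them the Fos proteins, ATF3 and the other Jun proteins. Its dimers recognise the TRE, read here as TGACTCA or TGAGTCA, and the related CRE, read as TGACGTCA. KLA engages the receptor TLR4, which activates the kinases JNK and p38 and the factor NF-kappaB, and the Fos and Jun genes are classical immediate-early genes of that response. PU.1 (an ETS factor) and CEBPa are factors that set up much of the enhancer repertoire of macrophages before any stimulus.

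Some of the loci described below are shown first, because they carry the contrasts in the data: the strongest KLA-only locus, near Fos, the strongest KLA-only locus that has a TRE, near Ezr, a KLA-only locus in Cd44 with both a TRE and a kappaB word, the strongest Veh-only locus with a TRE, in Arhgap24, and a shared locus whose rank in the Jun list fell the most, near Pfpl. The Fos and Cd44 windows were added after their values were seen. Each is the central 200 bp of the locus on the plus strand of GRCm38 (mm10), 5′ to 3′, and capitals mark every match, on either strand, to a TRE, a CRE, a kappaB word (GGGNNNTTCC, bound by NF-kappaB), a PU.1 word (AGGAAGT) or a CEBP word (TTGCNNAA).
KLA-only, Fos (chr12:85513722-85513921): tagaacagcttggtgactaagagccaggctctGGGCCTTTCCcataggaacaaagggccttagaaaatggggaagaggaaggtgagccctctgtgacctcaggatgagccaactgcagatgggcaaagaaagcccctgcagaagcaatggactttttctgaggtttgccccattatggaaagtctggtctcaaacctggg
KLA-only, Ezr (chr17:6824570-6824769): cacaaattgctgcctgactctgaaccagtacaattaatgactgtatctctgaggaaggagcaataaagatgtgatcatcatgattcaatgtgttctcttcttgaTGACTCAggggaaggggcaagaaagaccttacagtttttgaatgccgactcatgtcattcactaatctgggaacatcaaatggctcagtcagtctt
KLA-only, Cd44 (chr2:102873374-102873573): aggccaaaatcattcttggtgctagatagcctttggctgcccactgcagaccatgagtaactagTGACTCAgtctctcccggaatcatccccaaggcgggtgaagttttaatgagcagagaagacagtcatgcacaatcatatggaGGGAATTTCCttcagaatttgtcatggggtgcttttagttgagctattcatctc
Veh-only, Arhgap24 (chr5:102520553-102520752): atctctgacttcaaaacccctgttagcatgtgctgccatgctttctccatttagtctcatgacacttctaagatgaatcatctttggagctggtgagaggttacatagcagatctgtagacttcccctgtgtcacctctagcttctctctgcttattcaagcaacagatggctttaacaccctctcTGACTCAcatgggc
Shared, rank fall, Pfpl (chr19:12442597-12442796): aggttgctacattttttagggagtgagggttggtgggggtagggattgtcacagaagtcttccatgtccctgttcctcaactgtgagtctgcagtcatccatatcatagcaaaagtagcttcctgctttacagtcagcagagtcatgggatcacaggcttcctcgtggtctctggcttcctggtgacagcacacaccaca

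The Fos window held a kappaB word at bases 33 to 42 and no TRE. The Ezr window held a TRE at bases 105 to 111, next to its centre. In Cd44 a TRE at bases 65 to 71 and a kappaB word at bases 147 to 156 lay in the same window. The Arhgap24 TRE lay near the edge, at bases 187 to 193, and the Pfpl window held none of the 5 words.

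The Jun lists were of similar length, and the loci in them differed. KLA-only loci made up 35.3% of all Jun loci, shared loci 37.3% (36.7 to 37.9) and Veh-only loci 27.3%. Both kinds of one-treatment locus were weak on the whole: placed by count within their own list, from 0 for the weakest to 100 for the strongest peak, KLA-only loci had a median percentile of 36.4 and Veh-only loci 30.1, against 65.0 (KLA list) and 66.6 (Veh list) for shared loci. The count is the whole number deposited with each peak, and it ranged from 11 to 127 in the Veh list (median 25) and from 16 to 145 in the KLA list (median 31).

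Loss and gain differed at the strong end of the lists. In the weakest decile of the Veh list 82.0% (80.1 to 83.7) of loci had no KLA peak, and in the weakest decile of the KLA list 74.4% (72.4 to 76.3) had no Veh peak. In the strongest decile, 2.54% (1.87 to 3.44) of the Veh loci had no KLA peak, 40 loci of 1573, but 13.8% (12.3 to 15.5) of the KLA loci had no Veh peak, 237 of 1716. One-treatment loci were thus rarer at the strong end of the Veh list than at that of the KLA list. Over the strongest 50% of each list, 1488 of 7760 Veh loci (19.2%) were Veh-only and 2820 of 8748 KLA loci (32.2%) were KLA-only.

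**Figure D1:**
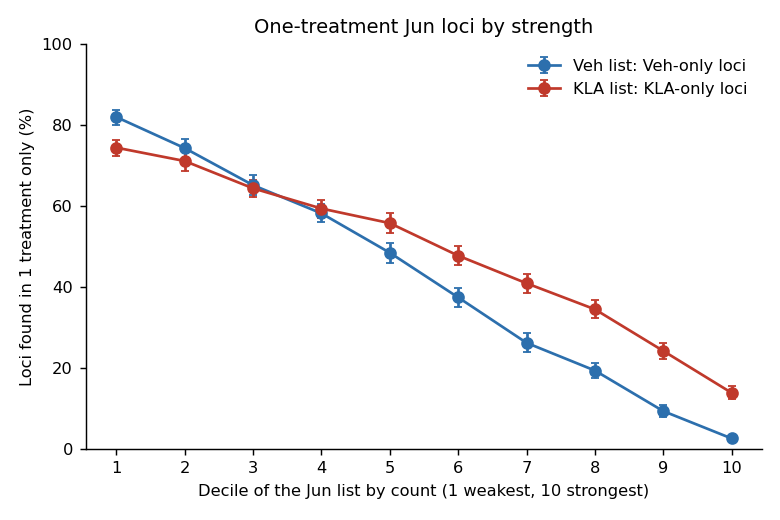
Share of loci found in one treatment only (y axis, percent) by decile of count within the Jun list (x axis, 1 weakest to 10 strongest), for the Veh list (blue) and the KLA list (red); bars are 95% Wilson intervals. Both shares fall with strength, and in the strongest decile 2.54% of Veh loci and 13.8% of KLA loci were in one treatment only.

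The strongest KLA-only locus lay on chromosome 12 (85513709 to 85513934), outside genes and 38910 bp downstream of the start of Fos, the immediate-early partner of Jun. It had a count of 110 (percentile 99.7) after KLA and no Veh peak. The other monomers, PU.1 and CEBPa all had a peak there after KLA and none of them had one in Veh, and the BALB/cJ lists held a Jun peak after KLA (count 129) and none in Veh. All of these lists thus held the site after KLA alone.

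The next 4 KLA-only loci were of similar strength. The locus near Ezr, which encodes ezrin, a linker of membrane and actin, had a count of 104, lay 41885 bp upstream of its start within a noncoding gene, and had ATF3 but not JunD in Veh. The locus in the body of Cd44, the hyaluronan receptor, had the same count of 104, lay 27873 bp into the gene, outside its exons, and had none of the 7 other factors in Veh. Loci near Hsd17b12, a reductase of fatty acid elongation, and Frmd6, a FERM domain protein, each had a count of 100. Unlike the Fos and Cd44 sites, both of these already held ATF3, JunD, FosL2 and PU.1 in Veh, and Jun arrived where other monomers were listed. The PPARg knockout Veh list held a Jun peak at the loci near Ezr, Frmd6 and Hsd17b12, with counts of 13, 29 and 18, and the BALB/cJ Veh list at that near Frmd6, with a count of 50, so these 3 loci were not without Jun in all resting lists.

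The strongest Veh-only locus lay on chromosome 10 (117277807 to 117278196), overlapping an exon of Lyz2, the macrophage lysozyme gene, 4320 bp downstream of its start. It had a count of 111 (percentile 99.9) in Veh and no KLA peak, and it was also the only Veh-only locus in the strongest 1% of the Veh list (1 of 160). JunD and CEBPa left it together with Jun, PU.1 remained, and ATF3 was in neither list. The BALB/cJ and PPARg knockout Jun lists held no peak there, so of the Jun lists the C57BL/6 Veh list alone held this site.

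The other 4 strongest Veh-only loci had counts of 74 to 76. At the Arhgap24 locus, in an intron of that gene, the count was 76, and ATF3 and JunD remained, Fos and JunB arrived, and PU.1, CEBPa and FosL2 left. The locus near Ccnb2 (cyclin B2), which lies in Myo1e, had the count 74 and the same ATF3, JunD, Fos and JunB pattern with PU.1 kept. The Clic1 locus, 506 bp from a start of that chloride channel gene, had the count 74, and there ATF3, JunD, Fos and FosL2 left as well while PU.1 remained. The locus near Map3k20, a kinase that feeds JNK and p38, had the count 75, with ATF3 kept and JunD lost. In BALB/cJ the Clic1 and Map3k20 loci had a Jun peak in both treatments, and those in Arhgap24 and near Ccnb2 had a Veh peak alone, with counts of 91 and 62.

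Among the 8970 shared loci the order of binding was reshuffled. The median change in percentile, KLA minus Veh, was -2.1 points (quartiles -17.7 and 11.5), and the percentiles in the Veh and KLA lists had a Spearman correlation of 0.56 across loci, given as a description because both lists sample one set of loci. By over 25 points, 1215 loci (13.5%, 12.9 to 14.3) rose and 1565 (17.4%, 16.7 to 18.2) fell.

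The largest rises were at sites near the bottom of the Veh list, the only place from which a rise of that size can start on this scale. A locus in Klf7, a Krüppel-like factor gene, went from a count of 13 to 67 and rose by 91.2 percentile points. Loci in Acoxl (an acyl-CoA oxidase-like gene), near Snx18 (a sorting nexin), in Il1rl2 (a receptor of the IL-1 family) and far upstream of Zeb2 (a zinc finger repressor) rose by 87.5 to 89.8 points. Each had a count of 12 to 14 in Veh and 56 to 72 after KLA. The largest falls were near Pfpl (a perforin-like gene), where the count went from 55 to 18 and the rank fell by 87.1 points, and at Dcakd, Dusp6, Serpine2 and Bst1. The locus near Dusp6, the phosphatase of ERK, fell by 85.1 points, with counts of 45 and 16, and that in Serpine2, a protease inhibitor, had counts of 51 and 18. At all 5 falling loci ATF3 and JunD had a peak in both treatments, PPARg and PU.1 had a Veh peak, and PU.1 remained after KLA at 4 of them, the exception being Dcakd.

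Loci near the start of a gene were most frequent in the Veh-only and least frequent in the shared class. Within 1 kb of the start of a protein-coding gene lay 19.2% (18.4 to 20.1) of KLA-only, 15.3% (14.6 to 16.1) of shared and 22.2% (21.2 to 23.2) of Veh-only loci, beside 21.4% (20.9 to 21.9) of the 25744 AP-1 loci without a Jun peak. The difference between KLA-only and Veh-only loci was -3.0 points (-4.3 to -1.7). Against shared loci it was 3.9 points (2.7 to 5.0) for KLA-only and 6.9 points (5.6 to 8.1) for Veh-only loci. The median distance to a start was 9876 bp for KLA-only, 11695 bp for shared and 9101 bp for Veh-only loci. Most loci of each class were distal: 45.9% of KLA-only and 45.3% of Veh-only loci were intronic, and 46.7% and 44.7% lay between protein-coding genes.

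Where Jun arrived, the other monomers were nearly always present after KLA. At KLA-only loci 96.4% (96.0 to 96.8) had at least one of the 5 other monomers after KLA and 48.4% (47.3 to 49.4) had one already in Veh. ATF3 was present at 39.9% in Veh and 91.1% after KLA, and JunD at 32.1% and 89.4%. Fos went from 1.42% to 74.9%, JunB from 0.259% to 46.2% and FosL2 from 5.33% to 34.5%. The median KLA-only locus held 4 of the 5 other monomers after KLA, and 22.2% (21.3 to 23.1) held all 5. Shared loci had the same median of 4 and higher shares after KLA. Of these, 99.6% had another monomer and 44.3% all 5, with ATF3 at 98.2% and Fos at 88.7%. At AP-1 loci without Jun the shares after KLA were lower, with ATF3 at 61.8%, JunD at 45.4% and Fos at 29.9%.

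For each factor the share that arrived was read against the same share over all of its own KLA loci. Of the KLA-only loci with ATF3 after KLA, 57.7% had no ATF3 in Veh, beside 48.9% of all ATF3 loci. For JunD the share was 66.5%, beside 51.7%, and for FosL2 92.3%, beside 75.3%. All of these lay above the share over the factor's own list, but at AP-1 loci without a Jun peak the shares were higher still for ATF3 (73.8%) and JunD (78.6%), and near that of KLA-only loci for FosL2 (91.1%). Fos (98.5%, beside 95.5%) and JunB (99.8%, beside 98.2%) had so few Veh peaks, 1804 and 463, that almost every site of theirs was an arrival.

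KLA-only loci fell into a group with, and a group without, earlier occupancy. At 38.4% (37.4 to 39.5) none of the 7 other factors had a Veh peak, and at 13.2% (12.5 to 13.9) PU.1 or CEBPa but no other monomer did. After KLA only 1.97% had no other factor. Jun itself joined 2098 loci (24.7%) that held both ATF3 and JunD in Veh, so the gain of Jun was not always part of a gain of all monomers.

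Where Jun left, the other monomers mostly did not all leave with it. At Veh-only loci at least one other monomer was listed at 74.1% (73.0 to 75.2) in Veh and at 71.4% (70.3 to 72.5) after KLA. ATF3 was present at 62.0% in Veh and 62.5% after KLA, but these were not all one set of loci: it stayed at 48.0%, left at 921 loci and arrived at 953. JunD stayed at 36.9%, left at 17.9% and arrived at 15.8%. FosL2 left at 9.82% and arrived at 8.32%, while Fos arrived at 32.9% and JunB at 13.1%. ATF3 and JunD were both listed at 46.0% of Veh-only loci after Jun had gone.

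Read against its own loci, JunD left more often where Jun left: of the 3596 Veh-only loci with JunD in Veh, 32.6% had no JunD after KLA (31.1 to 34.2), beside 22.2% of all JunD loci. ATF3 left at 22.6% (21.3 to 23.9), beside 18.9%. FosL2 left at 79.1%, beside 50.8%, on 815 loci. These 3 monomers were thus lost at a higher rate than over their own lists. Fos (49.2% of 187 loci, beside 39.4%) and JunB (69.4% of 49 loci, beside 47.1%) rest on few Veh peaks. Over AP-1 loci without any Jun peak the shares were 52.7% for JunD, 42.8% for ATF3 and 82.5% for FosL2, above those at Veh-only Jun loci.

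The strength of the loci moved with these shares. ATF3 had a median percentile of 46.0 in its Veh list at Veh-only loci and 76.2 at shared loci, and JunD 44.6 and 75.7. Among the 1488 Veh-only loci in the strongest 50% of the Veh list, a subset chosen after the data were seen, ATF3 was present after KLA at 85.9% (84.0 to 87.6) and JunD at 76.7% (74.5 to 78.8), and Fos at 56.6% (54.1 to 59.1). At most of these stronger sites ATF3 and JunD were thus still called where Jun was not. These shares rest on KLA lists of ATF3 and JunD that are longer than their Veh lists. With lists of equal length, the Veh-only loci with an ATF3 peak in both treatments went from 3156 to 2213. For JunD they went from 2422 to 1325. A peak that falls under the calling threshold and a site that is empty cannot be told apart in these lists.

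**Figure D2:**
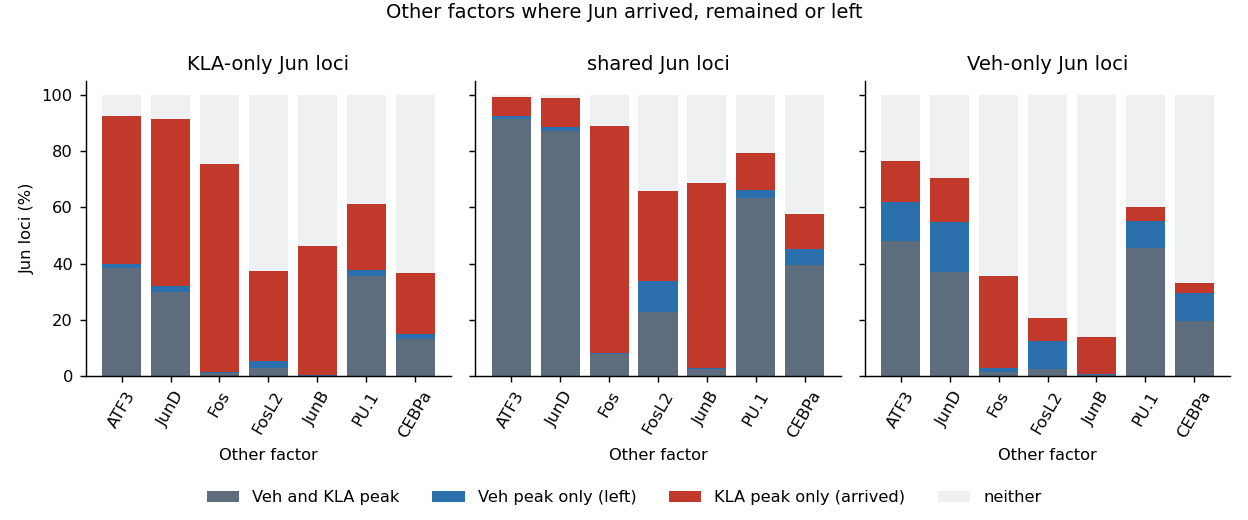
Share of KLA-only, shared and Veh-only Jun loci (y axis, percent) at which each other factor (x axis) had a peak in Veh and KLA, in Veh only (left), in KLA only (arrived) or in neither. At KLA-only loci most peaks of each monomer after KLA are arrivals, while FosL2 and JunB were in neither list at 62.8% and 53.6% of these loci, and at Veh-only loci ATF3, JunD, PU.1 and CEBPa show stays, departures and arrivals side by side.

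PU.1 and CEBPa moved with Jun at part of the loci. At KLA-only loci PU.1 was present at 37.5% in Veh and 59.2% after KLA, and it arrived at 23.7% and left at 1.97%. Of the KLA-only loci with PU.1 after KLA, 39.9% were arrivals (38.6 to 41.3), beside 24.7% of all PU.1 loci. CEBPa went from 15.0% to 34.9%, and 62.0% of its KLA peaks there were arrivals (60.3 to 63.8), beside 39.4% of all CEBPa loci. At AP-1 loci without Jun 27.3% of the PU.1 and 46.3% of the CEBPa peaks after KLA were arrivals, so both shares were higher at KLA-only Jun loci.

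At Veh-only loci PU.1 fell from 55.2% to 50.7%, with 45.6% staying, 9.62% leaving and 5.10% arriving. Of the PU.1 loci there 17.4% left (16.2 to 18.7), beside 26.4% of all PU.1 loci and 16.1% (15.3 to 16.9) of those at AP-1 loci without Jun. CEBPa fell from 29.5% to 23.1%, and 33.7% of its Veh loci left (31.6 to 35.8), beside 30.4% over its own list and 35.3% at AP-1 loci without Jun. Arrivals of either factor differed most between the classes: KLA-only minus Veh-only was 18.6 points (17.5 to 19.6) for PU.1 and 18.1 points (17.1 to 19.1) for CEBPa. All lists of one treatment were called against the input of that treatment, so that they share it.

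Where ATF3, JunD, PU.1 or CEBPa had a peak in both treatments, the median change of its rank was above 0 at KLA-only and below 0 at Veh-only loci. At KLA-only loci the median change in percentile, KLA minus Veh, was 20.7 points for ATF3 (3270 loci, higher at 81.3%), JunD 17.5 points (2543 loci, higher at 73.7%), PU.1 11.1 points (3022 loci) and CEBPa 8.8 points (1127 loci). At Veh-only loci the medians were -1.8 for ATF3, -9.3 for JunD, -2.5 for PU.1 and -8.6 for CEBPa. The shared loci showed the same order: where the Jun rank rose by over 25 points, the median change was 29.9 points for JunD and 26.3 for ATF3, and where it fell by over 25 points they changed by -7.7 and -1.7. At AP-1 loci without Jun the medians were 2.1 for ATF3, -2.0 for JunD, 0.7 for PU.1 and -4.5 for CEBPa, so that of CEBPa was below 0 there too. With whole lists Fos was an exception, with medians of 12.4 points at Veh-only loci (95 loci, higher at 56.8%) and 32.8 points where the Jun rank fell by over 25 points (100 loci, higher at 81%).

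These percentiles move with the length of the lists, which were longer after KLA for ATF3 (23160 and 36745 peaks), JunD (19653 and 31640) and CEBPa (12892 and 14802), and near equal for PU.1 (41573 and 40645). With the longer list of each pair shortened to its strongest peaks, an alternative chosen after seeing the data, the medians at KLA-only loci were 6.8 points for ATF3 (2979 loci, higher at 60.3%), 3.9 for JunD (2185 loci, higher at 54.4%), 11.6 for PU.1 and 6.1 for CEBPa. Those at Veh-only loci were then -19.6, -25.5, -2.0 and -12.8. The sign at both classes was thus kept in the 4 lists, while the sizes for ATF3 and JunD depended on list length. At AP-1 loci without Jun the medians became -12.4 for ATF3, a change of sign, -14.7 for JunD, 1.1 for PU.1 and -8.5 for CEBPa. For Fos, with 1804 peaks in Veh and 24365 after KLA, the median at all shared loci went from 40.9 to 5.4 points. Too few Veh-only and falling loci then held Fos peaks in both treatments to give a median. The part that list length played in the Fos exception was thus not tested.

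BALB/cJ macrophages, whose Jun libraries played no part in the classes, gave the same direction at the loci they covered. Their lists hold 10957 peaks in Veh and 11317 after KLA. Of the KLA-only loci 16.4% had a BALB/cJ Jun peak in Veh and 34.0% after KLA, and of the Veh-only loci 26.4% and 14.6%. Shared loci had 64.9% and 58.4%. The difference, KLA-only minus Veh-only, was -10.0 points (-11.3 to -8.7) for the BALB/cJ Veh list and 19.4 points (18.1 to 20.7) for the KLA list.

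Most one-treatment loci had no BALB/cJ peak at all: 41.9% of KLA-only and 34.0% of Veh-only loci had one in either list, beside 79.5% of shared loci. Among loci with a peak in just one BALB/cJ list, that list was KLA at 76.3% (74.7 to 77.8) of 2843 KLA-only loci and at 28.1% (26.0 to 30.2) of 1770 Veh-only loci. Where both BALB/cJ lists had a peak, the rank changed by a median of 13.7 points at KLA-only (720 loci) and -13.8 points at Veh-only loci (463 loci). At shared loci whose rank rose or fell by over 25 points in C57BL/6 it changed by 28.5 and -18.5 points, with the same sign at 88.9% of 361 rising loci, while 21.5% of 492 falling loci were higher.

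**Figure D3:**
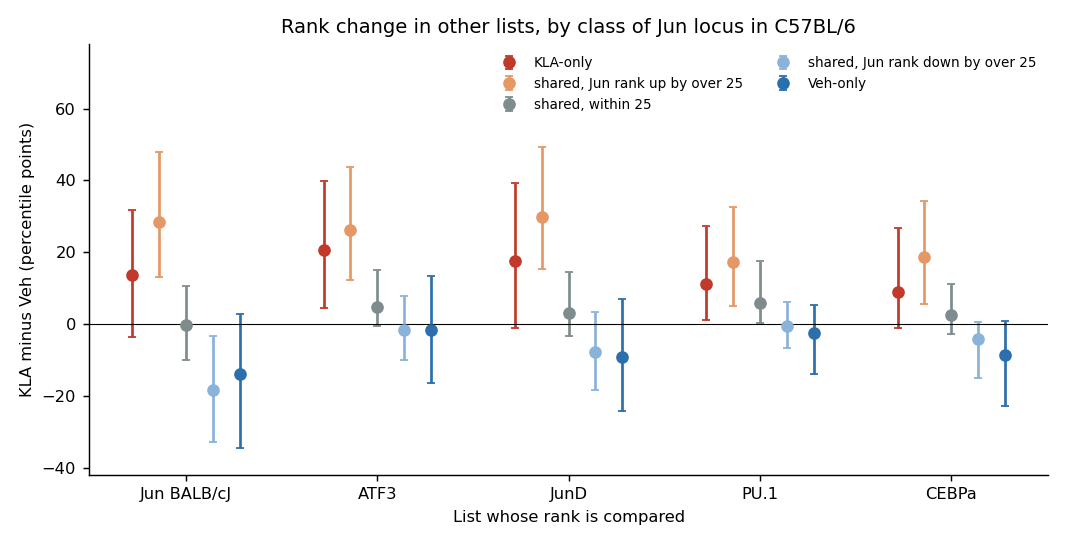
Change in percentile rank from Veh to KLA (y axis, percentile points) in the BALB/cJ Jun lists and in the ATF3, JunD, PU.1 and CEBPa lists of C57BL/6 (x axis), at 5 groups of C57BL/6 Jun loci; points are medians over loci with a peak in both lists, and bars span the quartiles. In all 5 lists the medians at KLA-only and rising loci lie above 0 and those at Veh-only and falling loci below 0, with whole lists (plotted) and with lists of equal length.

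PPARg, the nuclear receptor of lipid metabolism, was mapped in Veh. Its peaks lay at 53.2% (52.0 to 54.4) of Veh-only loci, 39.1% (38.1 to 40.1) of KLA-only loci and 75.2% (74.3 to 76.1) of shared loci, beside 29.1% (28.6 to 29.7) of AP-1 loci without Jun. The Jun list of the PPARg knockout is short, at 4290 peaks, and it covered 6.80% (6.22 to 7.44) of Veh-only, 4.84% (4.40 to 5.31) of KLA-only and 32.9% (31.9 to 33.8) of shared loci. The wild-type Veh list is longer, at 15548 peaks, and the part that list length played in these shares was not tested.

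KappaB words were more frequent at KLA-only than at Veh-only loci. A kappaB word lay in the central 200 bp of 10.3% of KLA-only loci (878 of 8494), 4.95% of shared loci and 2.48% (2.13 to 2.89) of Veh-only loci. AP-1 loci without Jun had 5.85%, and 200 bp windows of 32851 RefSeq promoters (GRCm38) 3.91%. The difference, KLA-only minus Veh-only, was 7.9 points (7.1 to 8.6). Among shared loci it was at 8.72% of those whose Jun rank rose by over 25 points and 2.56% of those that fell. The IRF word GAAANNGAAA, bound by interferon regulatory factors, followed the same order at lower shares. It lay at 5.42% of KLA-only, 3.32% of shared and 2.63% of Veh-only loci, beside 4.07% of AP-1 loci without Jun.

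The TRE was most frequent at shared loci, at 41.2%, and lay at 29.1% of KLA-only and 20.4% of Veh-only loci, beside 23.1% of AP-1 loci without Jun. The difference between the one-treatment classes was 8.8 points (7.4 to 10.2). The CRE was rare and alike in both, at 1.41% and 1.45% (difference -0.033 points, -0.43 to 0.35). Words that leaned to Veh-only loci were the E-box CACGTG, the PU.1 word and the CEBP word. The E-box, bound by MITF and TFE factors among others, lay at 6.84% against 4.01% of KLA-only loci. The PU.1 word lay at 21.2% against 16.8%, and the CEBP word at 17.4% against 14.5%. AP-1 loci without Jun had the E-box at 4.82%, the PU.1 word at 17.4% and the CEBP word at 14.4%. For the PU.1 and CEBP words these shares were near those of KLA-only loci. The E-box difference, -2.8 points over all loci, was -1.0 at intergenic loci 3 kb or more from any start, and that of the PU.1 word went from -4.4 to -7.5. The Runx word TGTGGTT and the Sp1 word CCCCGCCC differed by less than 1 point, and the intervals of both differences included 0. The nuclear receptor word AGGTCA lay at 17.2% of Veh-only and 15.7% of KLA-only loci.

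Within the KLA-only loci the kappaB word went with other readouts. It lay at 615 of 4386 with no other monomer in Veh (interval 13.0 to 15.1%) and at 263 of 4108 with one (5.69 to 7.19%). Where PU.1 arrived with Jun it lay at 15.1% (13.6 to 16.7), and where PU.1 had stayed at 9.66% (8.66 to 10.8). The PU.1 word itself had the opposite order, 12.5% where PU.1 arrived and 31.9% where it stayed. By position the kappaB word hardly differed, at 9.93% within 1 kb of a start and 10.4% farther away, whereas the TRE was at 19.1% and 31.5%. A kappaB word and a TRE in one window, as in Cd44, occurred at 199 KLA-only loci. The kappaB word was less frequent with a TRE than without one. It lay at 8.04% (7.03 to 9.17) of the 2476 KLA-only loci with a TRE and 11.3% (10.5 to 12.1) of the 6018 without.

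**Figure D4:**
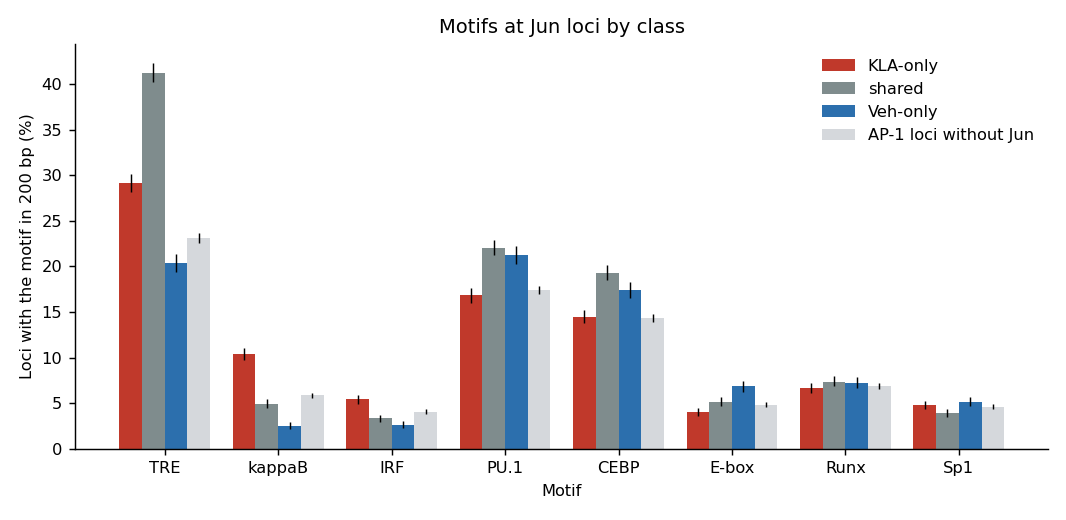
Share of loci (y axis, percent) with each motif word in the central 200 bp (x axis), for KLA-only, shared and Veh-only Jun loci and for AP-1 loci without a Jun peak; bars are 95% Wilson intervals. The kappaB and IRF words are most frequent at KLA-only loci, the TRE at shared loci and the E-box at Veh-only loci.

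Assigning each locus to the protein-coding gene with the nearest start gave 7627 genes, and 9 gene lists were compared by the class of their loci, with 35.3% KLA-only and 27.3% Veh-only over all loci. Cytokine and chemokine genes induced through TLR4 had the largest KLA-only share: 85 of 131 loci (64.9%, 56.4 to 72.5) were KLA-only and 9 (6.87%, 3.66 to 12.5) Veh-only. All 22 genes had a KLA-only locus, beside 4189 of the 7627 genes, a count that grows with the number of loci per gene. Interferon genes had few loci, 8 KLA-only, 5 shared and 1 Veh-only. JNK and p38 pathway genes had 37 KLA-only loci of 77 (48.1%, 37.3 to 59.0), and immediate-early and feedback genes 140 of 317 (44.2%, 38.8 to 49.7) with 44 Veh-only (13.9%). Lysosome genes lay at the other end, with 17 KLA-only (20.7%, 13.4 to 30.7) and 32 Veh-only loci (39.0%, 29.2 to 49.8) of 82.

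Genes of PPARg, LXR and lipid metabolism had 24 KLA-only, 38 shared and 28 Veh-only loci of 90. The macrophage identity list, transcription factors and receptors that mark the lineage, had 54, 60 and 33 of 147, and the genes of the TLR4 pathway itself 21, 23 and 10 of 54. The KLA-only shares of these 3 lists were 26.7% (18.6 to 36.6), 36.7% (29.4 to 44.8) and 38.9% (27.0 to 52.2), and each interval included the share over all loci. Several lists are small and one gene can give many neighbouring loci, which are not independent of each other.

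**Figure D5:**
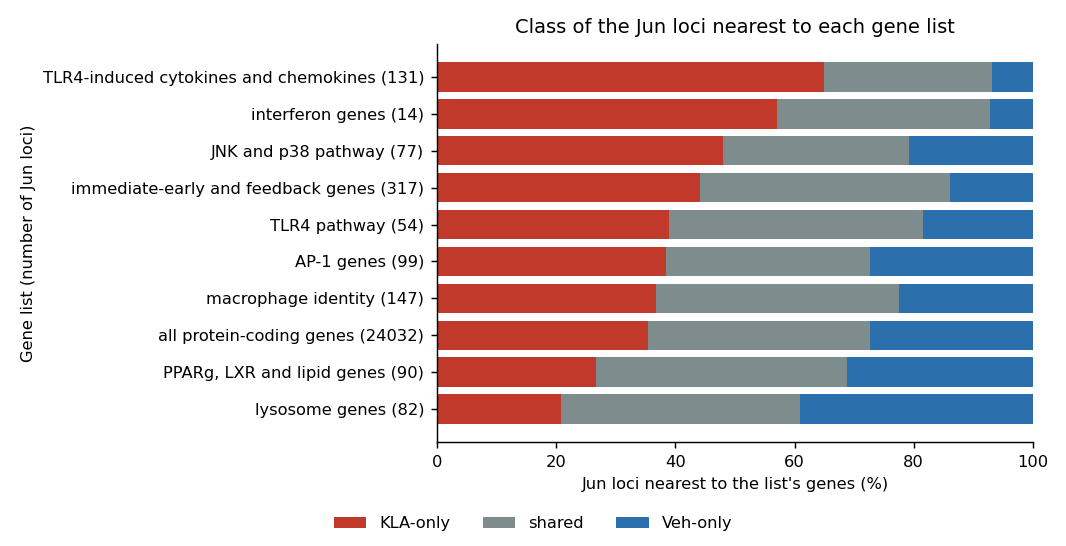
Share of Jun loci (x axis, percent) that were KLA-only, shared or Veh-only, by the gene list of the nearest protein-coding gene (y axis, number of loci in parentheses). The KLA-only share runs from 20.7% for lysosome genes to 64.9% for cytokine and chemokine genes, with 35.3% over all genes.

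At many but not all of the cytokine genes new Jun peaks stood beside older ones. Of the 22 genes, all with a KLA-only locus, 16 had a shared locus and 6 a Veh-only one. Lif, a cytokine of the IL-6 family, had 12 Jun loci, 11 KLA-only and 1 shared, and the shared one went from a count of 17 to 81. Ccl2, a monocyte attractant, had 5 KLA-only and 6 shared loci, with counts of up to 58 in Veh and 98 after KLA. Il1a, which encodes IL-1 alpha, had 6 KLA-only, 3 shared and 2 Veh-only loci. Near its start lay a KLA-only locus 30 bp upstream (count 49) with a TRE, and a Veh-only locus 694 bp downstream (count 25). The BALB/cJ lists held no Jun peak at the upstream locus and a Veh peak alone (count 25) at the downstream one.

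Tnf, Cxcl2 and Il6 are given for their promoters and were chosen after their values were seen. At Tnf, the gene of tumour necrosis factor, a KLA-only locus lay 98 bp upstream of the start (count 58) and another 747 bp upstream (count 35), while the shared locus 1379 bp downstream went from 57 to 24. At Cxcl2, a neutrophil attractant, a KLA-only locus 179 bp upstream had a count of 74, and at Il6, a major inflammatory cytokine gene, one 205 bp upstream had a count of 48. The Il6 locus held a TRE and a CEBP word, and neither the Tnf nor the Cxcl2 promoter locus held a TRE or a kappaB word of the searched form.

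The AP-1 genes themselves had 99 Jun loci, 38 KLA-only, 34 shared and 27 Veh-only, and the interval of each share included that over all loci. Jun, whose own promoter is bound by its product, had 17 loci: the shared promoter locus, centred 55 bp upstream of the start, had counts of 72 in Veh and 77 after KLA, and of the rest 4 were KLA-only, 4 shared and 8 Veh-only. Fos had 20 loci, 9 KLA-only, 7 shared and 4 Veh-only. Its KLA-only loci included 3 with counts of 74, 110 and 74, between 35801 and 58130 bp downstream. Atf3, an inducible repressor of inflammatory genes, had 18 loci, 10 of them shared, and the strongest, 12724 bp upstream, had 101 in Veh and 86 after KLA.

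Of the other AP-1 genes, Fosl2 had 7 KLA-only loci of 9, with one centred 25 bp upstream of its start (count 42), and Fosb 4 KLA-only of 5. Jdp2, a repressor member, had 5 KLA-only loci of 11, and Batf, a partner of Jun proteins and IRF factors in lymphocytes, 3 of 6. Jund, the monomer with constant expression in many cells, had a single shared locus with counts of 68 and 71. Junb had 2 shared and 1 Veh-only locus, Batf3 had 1 KLA-only, 1 shared and 3 Veh-only, Batf2 1 shared and 1 Veh-only, and Atf4 2 Veh-only. Fosl1, Atf2 and Atf7 had no Jun locus.

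The genes with most KLA-only loci were Lpp, a LIM domain protein of cell adhesions, with 36 of 78, Zeb2 with 31 of 54, Klf6, a Krüppel-like factor, with 23 of 56, Tnfaip3, the feedback inhibitor A20 of NF-kappaB, with 21 of 30, and Jarid2, a component of Polycomb complexes, with 20 of 34. Tnfaip3 was the most one-sided of these, with 8 shared and 1 Veh-only locus. The genes with most Veh-only loci were Cmip (11 of 21), an adaptor protein, Klf4 (11 of 24), a myeloid transcription factor, Cpeb2 (10 of 14), a regulator of translation, Dusp6 (10 of 21) and Lpp (9). Large gene surroundings collect loci of all classes, and 1882 of the 7627 genes had both a KLA-only and a Veh-only locus.

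In the remaining lists the genes with most loci differed in balance. Mapkapk2, the kinase downstream of p38, had 9 KLA-only loci of 13 and no Veh-only one, Map3k5 6 of 12, and Map3k1 had 6 KLA-only and 6 Veh-only of 14. Myc had 7 of each and 13 shared. Tlr4, the receptor of KLA, had 1 KLA-only, 4 shared and 5 Veh-only loci, and Irak2, an adaptor kinase of the same pathway, 4, 6 and 2. Rsad2, an antiviral gene, had 3 KLA-only loci and no Veh peak, one of them 90 bp upstream of its start, Oasl1 had 1 KLA-only and 2 shared loci, and Ifnb1, the interferon beta gene, had 2, 2 and 1.

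Among macrophage identity genes Runx1 had 12 KLA-only, 14 shared and 9 Veh-only loci, Maf 6, 6 and 8, and Mitf 5, 7 and 1. Pparg had 2 KLA-only, 7 shared and 7 Veh-only loci, Abca1, the cholesterol exporter, 6, 12 and 4, and Lpl, a lipase, 4, 2 and 2. Of the lysosome genes the protease gene Ctsb had no KLA-only locus, 5 shared and 5 Veh-only, the proton pump subunit gene Atp6v0d2 had 2, 2 and 5, and Ctsd, another protease gene, 4, 5 and 3. The Veh-only loci of Ctsb included one 40 bp downstream of a start, with a count of 38.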

How the data were processed

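ChIP-seq peak lists were deposited for each factor and treatment, and every peak has a position in mm10, a count and a score. Per the study's methods and the submitters' processing notes, the authors aligned reads with Bowtie2 to mm10 (BALB/cJ reads to a custom genome of that strain), called peaks with HOMER (size 200 bp) against the input of the treatment, and kept peaks with an irreproducible discovery rate below 0.05 between replicates. The deposited count is a whole number per peak, and how replicates were combined into it is not given in the sources used here. The deposited score runs from 540 to 1000, and 59.1% of Jun Veh and 49.8% of Jun KLA peaks were at 1000, so peaks were ranked by count. Counts summed over peaks to 466030 (Veh) and 622264 (KLA). Library depth is unknown.

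Peaks were merged into loci, placed by GENCODE M21 and searched for 10 motif words in GRCm38 with pysam 0.24.0. Functions were checked on simulated data. Named loci were the 5 KLA-only and 5 Veh-only loci with the highest count and the 5 shared loci with the largest rise and fall in rank, chromosome 18 left out. Named genes were the 5 with most loci of each one-treatment class, every AP-1 gene and the 3 genes with most loci in each list, of which 1 on chromosome 18 is not reported here. One sequence window that the rule selects is not reported here. Members, lists and rules were chosen with earlier results of these data known.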

Additional observations from a re-analysis of the deposited data

How the results depend on the processing

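With peak centres within 100 bp as the rule for one locus, KLA-only and Veh-only shares were 36.7% and 28.8%; with 50% reciprocal overlap, 36.3% and 28.3%; in the strongest 50% of each list, 33.7% and 25.5%; with lists of equal length, 31.2% and 31.3%; and with counts at or above the pooled median of 28, 43.9% and 16.3%. Lists of equal length give near-equal shares by construction. By the deposited score 29.4% of shared loci moved by over 25 percentile points. None of the 24 differences between KLA-only and Veh-only loci changed sign in 107 alternative values, of which 45 lay within the interval of the reported value, but some came near 0. With lists of equal length the difference in Fos after KLA went from 40.6 to 3.47 points and that in JunB after KLA from 32.9 to 0.68, and by construction these lists hold few peaks. ATF3 after KLA went from 28.6 to 6.8 in the strongest 50% of the Jun lists and to 42.7 with lists of equal length. JunD in Veh differed by -24.9 points at intergenic loci 3 kb or more from any start, -40.5 in the strongest 50% of the Jun lists and -48.4 for one-treatment loci in the strongest 50% of their list (added after seeing the data). JunD after KLA differed by 53.7 with lists of equal length, and by 11.5 and 21.5 in the same 2 strong subsets. PU.1 in Veh differed by -19.3, -25.1 and -27.1 in those 3 subsets, and PU.1 after KLA by 4.6 with centres within 100 bp and 5.8 in the strongest 50%. The TRE and kappaB differences were 5.4 and 5.0 in the central 100 bp, and kappaB 8.7 outside genes and 12.1 at strong one-treatment loci. BALB/cJ Jun differed by -30.4 (Veh) and 27.5 (KLA) at strong one-treatment loci, and after KLA by 17.8 with centres within 100 bp and 23.0 with equal lists. Ranks within lists of equal length were added after seeing the data. The median rank change of ATF3 at AP-1 loci without Jun then went from 2.1 to -12.4. The other 17 medians counted kept their sign. That count left out, among others, the medians over all shared loci and the Fos, FosL2 and JunB lists. Over all shared loci the median changed sign for ATF3 (5.3 to -0.8), JunD (3.1 to -3.3), FosL2 (5.6 to -4.1) and JunB (8.1 to -23.3). It kept its sign there for Fos, PU.1, CEBPa and BALB/cJ Jun. The cause of these shifts was not tested.

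No paired analysis was possible because each factor and treatment has one list with no replicate numbers. For the same reason no replicate was left out.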
